A study of Mus musculus with 18 samples.

Results

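The same ribozyme was given to B16F10 melanomas in a manganese framework or with no carrier, and the transcriptomes of the 2 sets of tumors were compared. B16F10 is a mouse melanoma cell line, grown here under the skin of C57BL/6 females, on the right flank. The 6 tumors compared, of 18 sequenced, were taken by treatment group: 3 received PS473@NKMOF-101-[Mn] and 3 received Free PS473. All 6 carried the same tumor line and received the same ribozyme by injection into the tumor every 2 days, starting on day 6 at a volume of about 50 mm3, and all were removed 48 h after the last injection. PS473 is a Pistol ribozyme, a small catalytic RNA, designed to cut the mRNA of PD-L1 (gene Cd274). NKMOF-101-[Mn] is a metal-organic framework built from manganese ions and an organic linker. The other 4 groups of 3 tumors received PBS, PS473@CPs (the ribozyme with cationic polymers), the empty framework, or M5@NKMOF-101-[Mn] (an inactive form of the ribozyme in the framework). The record titles of the PS473@NKMOF-101-[Mn] tumors carry another framework number, NKMOF-102, whereas their treatment notes read NKMOF-101, and the tumors were placed by the treatment notes.

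PD-L1 is a checkpoint ligand on tumor and myeloid cells that restrains T cells, and interferons are strong inducers of its gene. Interferons bind receptors that act through JAK kinases and STAT factors, and these switch on antiviral effectors, immunity GTPases and the antigen presentation genes. Cells make type I interferon when nucleic acid sensors, such as the RIG-I-like receptors for RNA or cGAS and STING for DNA, detect foreign or misplaced nucleic acid, and manganese ions are known to sensitize cGAS and STING. The comparison therefore asks what carrying the ribozyme in the framework added to giving it free.

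The ribozyme and its site are shown because both groups received an RNA built to cut at this site. The sequence is the 52-base form that the study listed for its first screen of target sites. The study then chose a form with a longer pairing arm and kept the name PS473. The injected RNA would therefore pair with more bases than are marked here. Capitals in PS473 mark the bases that pair with the target, and capitals in the target mark the GU (GT in the DNA) at which it was designed to cut.
PS473: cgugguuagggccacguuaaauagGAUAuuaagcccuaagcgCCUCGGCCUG
Cd274 target: caggccgaggGTtatc
The target lies in coding sequence of exon 4 of Cd274, at chr19:29380372-29380387 on the plus strand of build GRCm38. It was placed there by an exact match to the GENCODE M21 transcript. The G of the GU is base 473 of the coding sequence.

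Expression was measured as FPKM, the fragments of a gene relative to its length and to all fragments assigned to genes in that tumor. The tumors held between 17212000 and 28400000 recovered fragments over the 6 groups, and those compared here between 20105000 and 25654000. Of 41079 genes listed, 31286 were above 0 in at least 1 tumor and the 12357 that averaged 1 FPKM or more across the 18 tumors were tested. Fold changes are given as log2 of PS473@NKMOF-101-[Mn] over Free PS473 on the log2(FPKM + 1) scale, which understates the change of weakly expressed genes. The labelled tissue was checked with melanocyte genes. Pmel, a structural protein of melanosomes, had 1525, 1482 and 1631 FPKM in the framework tumors and 1059, 1582 and 893 FPKM in the free ribozyme tumors, so all 6 tumors expressed the melanocyte program.

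No gene passed the test after correction. In limma, with thresholds of 0.05 on the adjusted p and 2 on the fold, 0 of 12357 genes (0%) were higher and 0 (0%) were lower, and the smallest adjusted p was 0.781. Before correction, 615 genes (4.98%) had a p under 0.05 in limma at any fold. A descriptive screen was therefore used, an unadjusted p under 0.05 in limma with a fold above 2, which corrects for nothing. It held 69 higher genes (0.558% of those tested) and 24 lower genes (0.194%). Groups that did not overlap were also counted: in 289 genes (2.34%) every framework tumor lay above every free ribozyme tumor, and in 554 genes (4.48%) every framework tumor lay below. The log2 fold change was above 0 in 4762 genes (38.5%), and its median over all genes was -0.04.

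Cd274, the transcript that PS473 targets, did not differ between the groups beyond the spread of the tumors. It measured 17.0, 32.9 and 9.74 FPKM in the framework tumors and 12.3, 11.7 and 14.0 FPKM in the free ribozyme tumors. The framework group held both the highest and the lowest tumor, so the groups overlapped. The log2 fold change was 0.46 (SE 0.34, 95% interval -0.26 to 1.18, n = 3 per group, limma unadjusted p = 0.195 and adjusted p = 0.96). The interval includes 0. Without framework tumor 2 the log2 fold change was 0.03, and without framework tumor 3 it was 0.86 (limma unadjusted p = 0.0143). With array weights, whose estimation did not converge, it was 0.63 (limma unadjusted p = 0.00798, adjusted p = 0.0888). Group means ran from 12.7 ± 1.21 FPKM (SD, n = 3) in Free PS473 to 23.7 ± 3.94 in M5@NKMOF-101-[Mn], with 19.9 ± 11.9 in PS473@NKMOF-101-[Mn], 16.5 ± 4.64 in PBS, 16.3 ± 7.10 in PS473@CPs and 14.9 ± 0.945 in the empty framework.

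Of the other checkpoint genes, Lgals9, which encodes a ligand of the receptor TIM-3, had 64.0, 108 and 80.8 FPKM against 67.4, 44.8 and 72.0, a log2 fold change of 0.45 that missed the unadjusted threshold. Cd276, the checkpoint ligand B7-H3, stood at -0.23. Over the 8 of 18 checkpoint genes that could be tested, 5 lay above 0 and 3 below, 0 passed the screen and the median was 0.12 (-0.03 without framework tumor 2 and 0.39 without free ribozyme tumor 3). Pdcd1, the receptor for PD-L1 on T cells, was below 1 FPKM in all 6 tumors.

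The higher side of the comparison was made mostly of interferon-induced genes. Of the 69 genes in the screen, 52 stood in the lists of antiviral effectors, immunity GTPases, MHC class I and class II presentation, nucleic acid sensors or interferon signaling. Over all genes tested, 0.558% passed the screen as higher and 0.194% as lower, the shares to set beside the counts of each list. A count of 0 in a list is near these shares. These lists were written with earlier results of these data known, so their counts describe the tumors and are not independent evidence of a direction. In bulk tissue, a change in the number of expressing cells and a change in RNA per cell cannot be told apart.

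**Figure D1:**
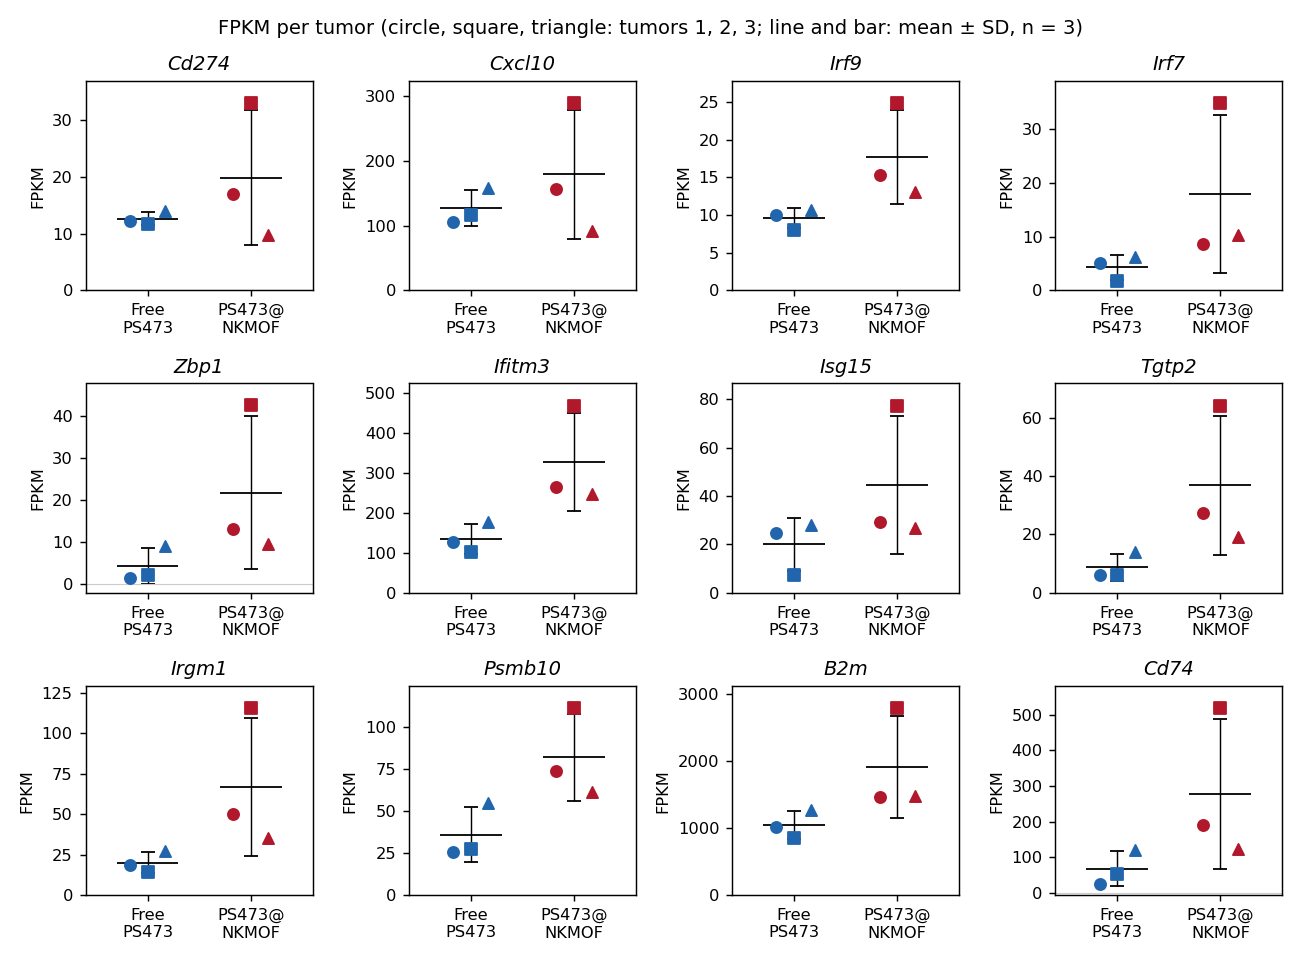
FPKM of 12 genes in each tumor of the Free PS473 (blue) and PS473@NKMOF-101-[Mn] (red) groups; symbols mark tumors 1, 2 and 3, and the line and bar give the mean and SD of n = 3. Framework tumor 2 is the highest tumor in every panel, and for Cd274, Cxcl10 and Isg15 the groups overlap.

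Interferon transcripts themselves were at or near 0. Ifnb1, which encodes interferon beta, had 0, 0.0573 and 0 FPKM in the framework tumors and 0, 0 and 0.114 in the free ribozyme tumors. Ifna4 was listed at 0 in all 6 tumors. Ifng, the interferon of T and NK cells, measured 0.175, 1.38 and 0.0809 FPKM against 0.103, 0.129 and 0.313. Framework tumor 2 thus had the highest Ifng level of the 6, and the gene was too weak over the 18 tumors to be tested.

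Irf7, the factor that amplifies type I interferon transcription, had 8.61, 34.8 and 10.4 FPKM against 5.08, 1.70 and 6.21, a log2 fold change of 1.68 (limma unadjusted p = 0.00559). Framework tumor 2 carried much of the Irf7 difference, since the log2 fold change was 1.09 without it. Irf9, a DNA-binding factor of type I interferon signaling, stood at 0.78, and like Irf7 it did not overlap between the groups. Usp18, which dampens interferon receptor signaling, stood at 1.42 with 9.91, 30.2 and 9.12 FPKM against 6.40, 2.50 and 5.95. Irf1, an interferon-induced transcription factor named after its values were seen, was also in the screen, at 1.01. Over the 19 tested genes of interferons, receptors and JAK-STAT signaling, 14 lay above 0 and 5 below, 4 passed the screen in the higher direction, and the median was 0.16 (0.59 without free ribozyme tumor 3).

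Several nucleic acid sensors were higher, and Cgas was close to level. Among 23 tested sensor genes, 21 had a log2 fold change above 0, 4 passed the screen in the higher direction, 0 in the lower, and the median was 0.53 (0.23 without framework tumor 2). Rigi, the RIG-I receptor for short double-stranded and 5′-triphosphate RNA, had 5.95, 12.5 and 5.55 FPKM in the framework tumors and 4.01, 2.45 and 2.76 in the free ribozyme tumors. The groups did not overlap, and the log2 fold change was 1.08 (SE 0.29, limma unadjusted p = 0.002). The related RNA receptors Ifih1 (MDA5) and Dhx58 (LGP2) stood at 0.95 and 1.18, and Tlr3, the endosomal receptor for double-stranded RNA, at 0.63. In each of these 3 genes every framework tumor lay above every free ribozyme tumor. Sensor genes of the Ifi200 family also lay above 0, with Ifi203 at 1.05, Ifi204 at 1.01, Ifi211 at 0.92 and Mndal at 0.91. Ifi203 was in the screen, while Ifi204 and Ifi211 missed the unadjusted threshold. The groups overlapped in Ifi203, Ifi204 and Ifi211.

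Zbp1, a sensor of Z-form nucleic acid that can start necroptosis, had the largest log2 fold change of the sensor list, 2.13 (SE 0.60, limma unadjusted p = 0.00318). Its levels were 13.0, 42.7 and 9.51 FPKM against 1.35, 2.25 and 9.12, so that the lowest framework tumor and the highest free ribozyme tumor were nearly equal. Mlkl, the executor of necroptosis, had 7.15, 10.6 and 6.94 FPKM against 3.92, 4.13 and 5.62, a log2 fold change of 0.72 (limma unadjusted p = 0.00212) with no overlap. In the cell death list as a whole, 10 of 16 tested genes lay above 0, 6 lay below and 0 passed the screen.

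Cgas, the DNA sensor upstream of STING, measured 6.36, 7.90 and 4.76 FPKM in the framework tumors and 6.29, 6.53 and 6.05 in the free ribozyme tumors. The log2 fold change was -0.01 with a 95% interval of -0.35 to 0.32, which leaves out a 2-fold difference in either direction. Sting1, the adaptor itself, had 9.43, 12.9 and 8.64 FPKM against 7.87, 7.90 and 7.68, and its log2 fold change of 0.34 had a limma unadjusted p of 0.018. It was 0.19 without framework tumor 2 and then missed the unadjusted threshold. Transcript levels of these genes do not measure the activity of their proteins. Mavs, the adaptor of the RNA receptors, stood at 0.11, and Tbk1, the kinase shared by both routes, at -0.02.

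Antiviral effectors made up the longest of the lists, and nearly all of them lay above 0. Of 55 listed genes, 54 were in the table and 49 were tested, of which 47 had a log2 fold change above 0, 19 passed the screen in the higher direction and 0 in the lower. In 24 of them every framework tumor lay above every free ribozyme tumor, against 2.34% of all genes tested. The median log2 fold change was 0.95, against -0.04 over all genes tested, and it lay between 0.60 and 1.22 when single tumors of either group were left out.

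Ifitm3, a membrane protein that blocks virus entry, had the smallest p of all higher genes in the screen. Its levels were 264, 467 and 248 FPKM in the framework tumors and 127, 103 and 176 FPKM in the free ribozyme tumors, a log2 fold change of 1.24 (SE 0.26, 95% interval 0.68 to 1.79, limma unadjusted p = 0.000267, adjusted p = 0.781). Its close relative Ifitm2 had 43.7, 43.6 and 57.5 FPKM against 45.6, 42.1 and 50.8, a log2 fold change of 0.05, so the members of this family were not shifted alike. Trim30a, an interferon-induced ubiquitin ligase, had 5.06, 15.7 and 5.21 FPKM against 2.55, 2.58 and 2.88, a log2 fold change of 1.22. Oas1a and Oasl2, of the family that senses double-stranded RNA and activates RNase L, stood at 0.95 and 1.61. Ifit1 and Ifit3, which bind viral RNA, stood at 1.17 and 1.51, and Bst2, which tethers budding virus, at 0.91.

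Isg15, the ubiquitin-like modifier, gave a less even picture. It measured 29.4, 77.2 and 27 FPKM in the framework tumors and 24.6, 7.41 and 28 in the free ribozyme tumors, so that only framework tumor 2 stood clearly above and free ribozyme tumor 2 clearly below the rest. The log2 fold change of 1.14 (SE 0.49, limma unadjusted p = 0.0366) became 0.66 without framework tumor 2 and 0.57 without free ribozyme tumor 2, and missed the unadjusted threshold in both cases. Isg20, an exonuclease for RNA, had 2.03, 1.45 and 1.45 FPKM against 2.74, 0.65 and 2.61, a log2 fold change of -0.10. Mx1 and Mx2, dynamin-like antiviral GTPases, stood at 0.68 and 0.39 and missed the unadjusted threshold, as did Rsad2 (viperin) at 0.78.

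The immunity GTPases had the highest median log2 fold change of the 29 lists. All 16 tested members of the guanylate-binding proteins and immunity-related GTPases, out of 20 listed, had a log2 fold change above 0, and 15 passed the screen. The median was 1.61, and it lay between 1.03 and 2.09 with single tumors left out. These proteins attack the membranes of intracellular bacteria and parasites and are induced most strongly by interferon gamma. Irgm1, a regulator of the family, had 50.1, 115 and 35.2 FPKM against 18.8, 14.3 and 27.4, a log2 fold change of 1.55 (SE 0.37, limma unadjusted p = 0.000773). Irgm2 stood at 1.85 and Igtp at 1.94, both without overlap. Tgtp2 had 27.2, 64.0 and 19.2 FPKM against 6.04, 6.26 and 13.9, a log2 fold change of 1.87 (SE 0.41, limma unadjusted p = 0.000382), and its near-identical neighbor Tgtp1 stood at 2.07, a pair whose reads the counting may have divided arbitrarily.

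Groups overlapped in most guanylate-binding genes in spite of their large mean differences. Gbp2 measured 45.1, 119 and 31.1 FPKM in the framework tumors and 8.64, 12.7 and 39.8 in the free ribozyme tumors, with a log2 fold change of 1.68. Free ribozyme tumor 3 lay above framework tumor 3 here, as it did for Gbp3, Gbp4, Gbp5, Gbp6, Gbp7 and Gbp9. Over the whole list, 6 of 16 genes did not overlap, all with the framework tumors above, against 2.34% of all genes tested.

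**Figure D2:**
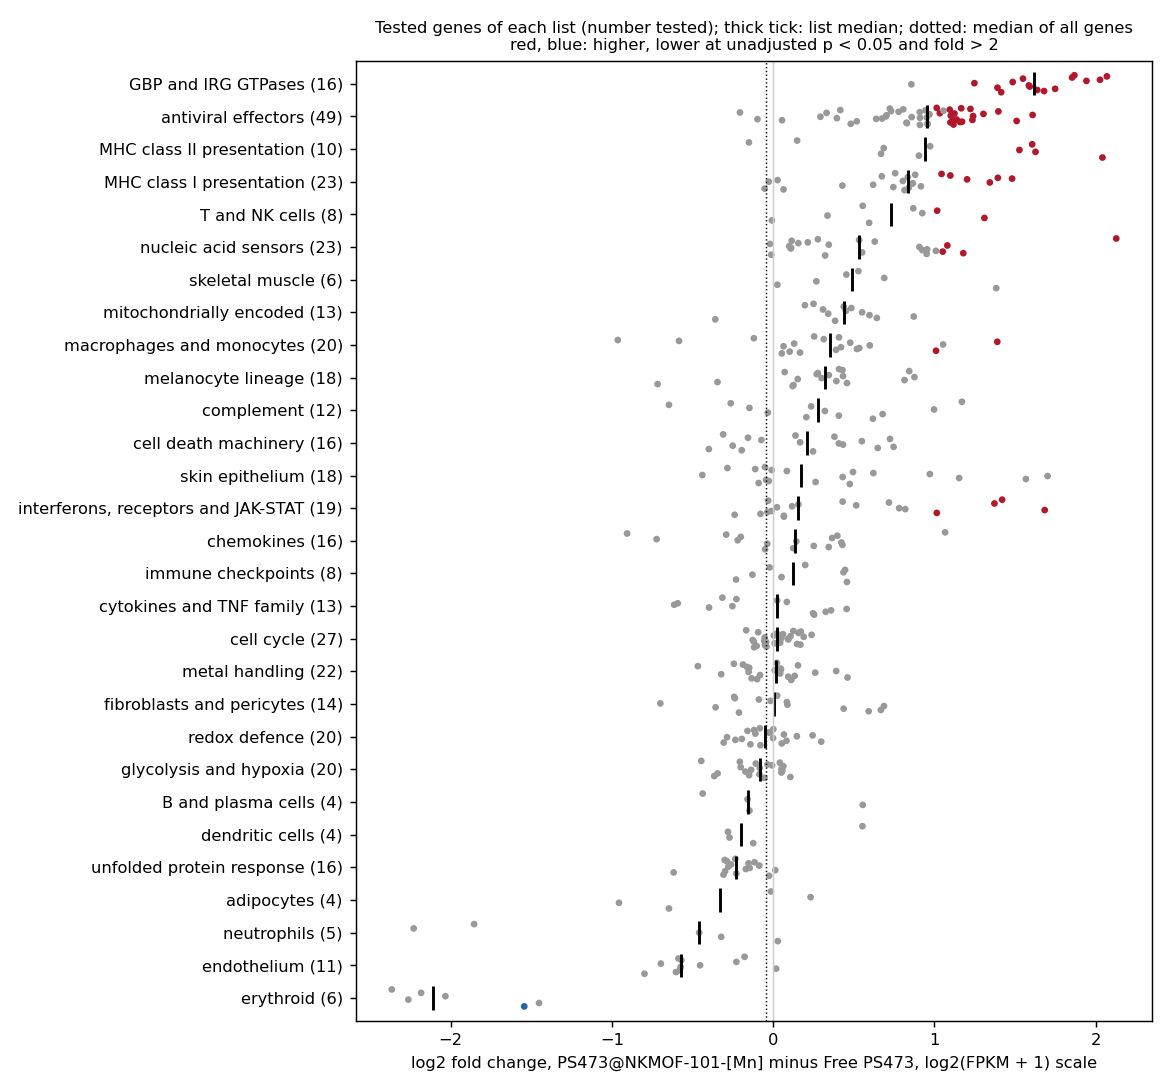
Log2 fold change (PS473@NKMOF-101-[Mn] minus Free PS473, on the log2(FPKM + 1) scale, horizontal axis) of each tested gene in 29 lists (vertical axis); thick ticks are list medians and the dotted line is the median of all genes. Immunity GTPases, antiviral effectors and both MHC lists lie farthest to the right, with medians of 1.61, 0.95, 0.83 and 0.94, and erythroid genes farthest to the left at -2.11.

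Apol9a and Apol9b, a pair of interferon-induced apolipoprotein L genes, stood at log2 fold changes of 1.90 and 2.14. Apol9b had 18.9, 51.1 and 13.9 FPKM against 4.28, 2.80 and 7.97. These genes share much of their sequence, so their separate values are uncertain. Batf2, an interferon-induced partner of JUN proteins, stood at 1.33. These genes, Ifitm3, Psmb10 and 4 of the immunity GTPases (Tgtp2, Irgm1, Irgm2 and Igtp) were among the 10 higher genes of the smallest p. In all 10 the groups did not overlap, which a choice by small p in these same tumors favors.

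Promoters of these 10 genes were searched because the genes were higher together. The interferon-stimulated response element was searched as GAAA, any 2 bases and GAAA, on both strands, in the 250 bases before the transcription start of RefSeq genes (build GRCm38.p6). It was present in 2.98% of all 32851 promoters and in 2.61% of the promoters of genes tested. The higher genes in the screen held it in 24 of 56 promoters (42.9%), where 48 of 69 genes had an entry. Among the immunity GTPases, 10 of 12 promoters held it, from 11 of 20 genes with an entry. It was in 19 of 50 promoters of antiviral effectors, 7 of 27 for sensors, 3 of 22 for MHC class I and 1 of 12 for MHC class II. The gamma-activated site was also searched, as TTC, any 3 bases and GAA. It was in 5.81% of promoters of genes tested and in 11 of the 56 (19.6%) of the screen. Among the GTPases 6 of 12 promoters held it, against 4 of 50 for antiviral effectors. Below, capitals mark the interferon-stimulated response element in 5 of the 10 genes. The copy in Apol9b is in the reverse orientation and is the same as that in Apol9a. The marked copies in Irgm1 and Apol9b each overlap a further match that is not marked.
Tgtp2: tccaggaatcGAAACCGAAAcctactctga
Irgm1: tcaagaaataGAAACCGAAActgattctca
Irgm2: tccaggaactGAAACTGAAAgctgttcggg
Igtp: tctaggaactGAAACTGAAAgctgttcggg
Apol9b: gaggtgagacTTTCAGTTTCcatttcccag
The stretches lie before the start of their gene, at chr11:49064263-49064292 (minus strand) for Tgtp2, chr11:48871425-48871454 (minus strand) for Irgm1, chr11:58214903-58214932 (plus strand) for Irgm2, chr11:58199512-58199541 (plus strand) for Igtp and chr15:77729025-77729054 (plus strand) for Apol9b. Irgm2 and Igtp hold the same element. No match of the interferon-stimulated response element was found in the window of Ifitm3 or Psmb10, and Batf2 had no entry. A match describes the sequence and was not tested as a binding site.

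Genes of MHC class I presentation were higher in parts of the pathway that interferon induces and level in its general chaperones. Of 23 tested genes, 21 lay above 0, 6 passed the screen in the higher direction and 0 in the lower, and the median was 0.83 (0.46 without framework tumor 2). Psmb10, an immunoproteasome subunit, had 73.7, 111 and 61.5 FPKM against 25.9, 27.6 and 54.8, a log2 fold change of 1.20 (SE 0.31, limma unadjusted p = 0.0014). The other immunoproteasome subunits, Psmb9 and Psmb8, stood at 1.39 and 1.48, and the peptide transporter genes Tap1 and Tap2 at 1.10 and 0.88. B2m, the light chain of all class I molecules, had 1462, 2779 and 1475 FPKM against 1019, 850.3 and 1270.5, a log2 fold change of 0.81 (SE 0.22, limma unadjusted p = 0.00222) with no overlap. The class I heavy chains H2-K1 and H2-D1 stood at 0.92 and 0.74, and their groups overlapped. The endoplasmic reticulum chaperones Calr, Canx and Pdia3 stood at 0.06, -0.05 and 0.03, each with an interval inside -0.28 to 0.33.

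MHC class II genes are expressed by professional antigen-presenting cells, and interferon gamma can induce them in other cells. Cd74, the invariant chain, had 190.4, 518 and 123 FPKM in the framework tumors and 25.6, 53.4 and 121 FPKM in the free ribozyme tumors, a log2 fold change of 2.04 (SE 0.57, 95% interval 0.83 to 3.26, limma unadjusted p = 0.00282). Framework tumor 3 and free ribozyme tumor 3 were nearly equal. Ciita, the master regulator of the class, had 1.91, 4.43 and 0.825 FPKM against 0.497, 0.575 and 0.87, a log2 fold change of 0.90. Of 10 tested genes, 9 lay above 0, 4 passed the screen in the higher direction, 2 did not overlap, and the median was 0.94 (0.60 without framework tumor 2). As a mean over the list, free ribozyme tumor 3, at 3.94 on the log2(FPKM + 1) scale, lay above framework tumors 1 and 3, at 3.84 and 3.60. The miRNA gene Mir5107, named after its values were seen, had nearly the same values as Cd74, inside which it lies on the same strand. Mir6381, also named after the fact, lies across Gbp2 on the other strand. Both were in the screen, and their fragments cannot be told apart from those of the host genes.

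The difference was uneven within each group. All 69 higher genes of the screen reached their highest framework level in tumor 2, and 58 of them had their lowest in tumor 3. Among the free ribozyme tumors, 64 of the 69 were highest in tumor 3. The mean log2(FPKM + 1) of the 69 genes was 3.70, 5.05 and 3.36 in framework tumors 1, 2 and 3 and 2.32, 2.27 and 3.23 in the free ribozyme tumors, and 39 of the 69 did not overlap between the groups. Framework tumor 3 and free ribozyme tumor 3 therefore stood close to each other. Without framework tumor 2, 21 of the 69 genes stayed in the screen, all 69 kept a positive log2 fold change, and its median over them was 0.88. The genes were chosen by fold and p in these same tumors, which favors both a kept sign and a lack of overlap. With single free ribozyme tumors left out, 44 to 68 genes stayed, the fewest without tumor 2.

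**Figure D3:**
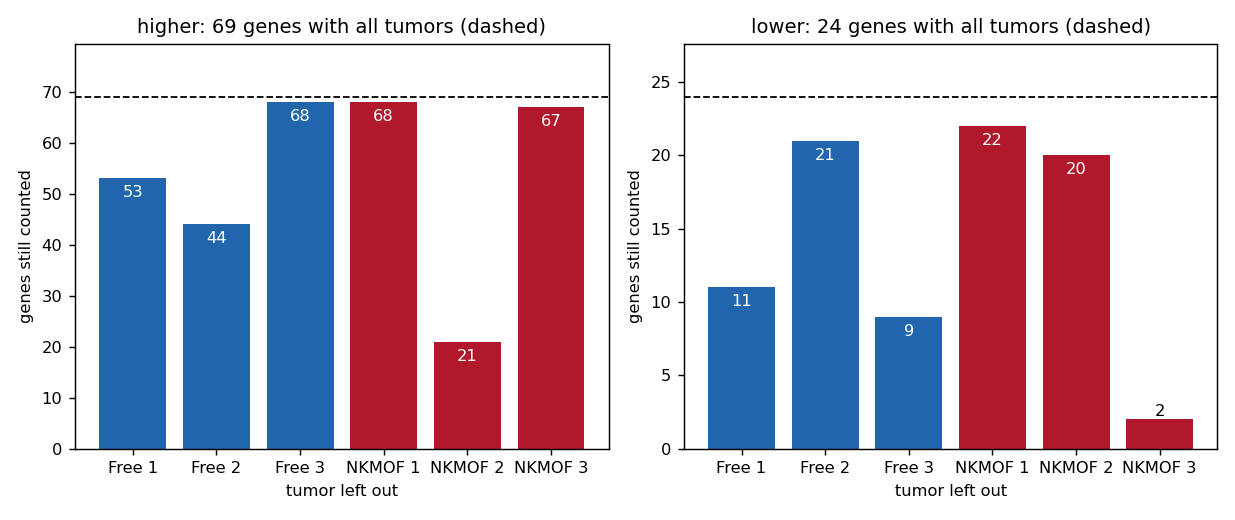
Number of the 69 higher (left) and 24 lower (right) genes of the screen that stayed in it when the tumor named on the horizontal axis was left out (blue, Free PS473; red, PS473@NKMOF-101-[Mn]); the dashed line is the count with all tumors. Without framework tumor 2, 21 of the higher genes stayed, and without framework tumor 3, 2 of the lower genes.

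Skin markers, unlike those of muscle, endothelium and blood, moved with the same tumors in both groups. The skin epithelium list, expressed as mean log2(FPKM + 1), stood at 0.29, 2.79 and 0.79 in the framework tumors. It stood at 0.27, 0.30 and 2.39 in the free ribozyme tumors. In these 2 groups the tumor highest in interferon-induced genes was also the highest in skin genes. In the other groups this held in none for the immunity GTPase mean and only in the empty framework for the antiviral mean. It held in some of them for the MHC lists. PBS tumor 2 had the highest skin mean of its group, 4.65, and the lowest immunity GTPase mean, 2.61. The 24 skin genes in the table summed to 13.1, 423 and 43.7 FPKM in the framework tumors against 12.4, 14.8 and 528 FPKM in the free ribozyme tumors. Krt5 and Krt14, the basal keratins, were listed at 0 in free ribozyme tumors 1 and 2. With the skin score as a covariate, 65 of the 69 higher genes stayed in the screen. Erythroid genes showed the opposite order in the framework tumors, with Hba-a1, an alpha globin, at 2769, 15.4 and 1541 FPKM against 4436, 706 and 2472. Framework tumor 2 thus held very little globin RNA. Ahsp, a globin chaperone, was the erythroid gene in the screen, at a log2 fold change of -1.54 that missed the unadjusted threshold without framework tumor 2 or 3 or free ribozyme tumor 1 or 3. All 6 tested erythroid genes lay below 0, with a median of -2.11 that was -0.06 without framework tumor 2. The part of skin or blood content in the interferon-induced genes was not tested.

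Immune cell markers were mixed. T and NK cell genes were weak, with 8 of 28 tested, 7 of them above 0, 2 in the screen and a median log2 fold change of 0.73 (0.27 without framework tumor 2). Gzmb, a granule protease of cytotoxic lymphocytes, had 1.06, 6.81 and 1.08 FPKM against 0.378, 0.0773 and 0.485, a log2 fold change of 1.31 (SE 0.50, limma unadjusted p = 0.0195) that became 0.67 without framework tumor 2 and then missed the unadjusted threshold. Trac, the constant region of the T cell receptor alpha chain, stood at 1.02. The 28 genes summed to 13.0, 51.1 and 14.6 FPKM against 6.36, 6.82 and 15.4 FPKM, highest in framework tumor 2 and, in the other group, in tumor 3, the tumors that were also highest in the interferon-induced genes. Their part in those genes was not tested.

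Macrophage and monocyte genes were less even. Of 20 tested, 17 lay above 0 and 2 passed the screen, with a median of 0.35. Axl, a receptor that clears apoptotic cells, had 15.1, 28.9 and 11.6 FPKM against 7.28, 7.83 and 9.18, a log2 fold change of 1.01 with no overlap. Ly6c2, a marker of inflammatory monocytes, stood at 1.39, and at 0.76 without framework tumor 2, where it left the screen. Csf1r and Adgre1, the defining macrophage genes, stood at 0.06 and 0.05, and at 0.56 and 0.62 without free ribozyme tumor 3. The list median likewise turned on the free ribozyme tumors, from -0.00038 without tumor 2 to 0.93 without tumor 3. Mrc1, the mannose receptor of resident macrophages, had 2.33, 1.57 and 1.42 FPKM against 3.06, 2.19 and 10.9, a log2 fold change of -0.96 that rested on free ribozyme tumor 3.

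Chemokines and inflammatory cytokines passed the screen in 0 of 16 and 0 of 13 tested genes. Over all genes tested, 0.558% passed it as higher and 0.194% as lower, so these counts are near those shares. Cxcl10, the T cell chemoattractant, had 157, 288 and 92.3 FPKM in the framework tumors and 106, 116 and 159 in the free ribozyme tumors, a log2 fold change of 0.37 (SE 0.29, 95% interval -0.26 to 0.99). It stood at -0.05 without framework tumor 2. Cxcl9, which binds the same receptor, had 7.13, 15.9 and 6.21 FPKM against 1.53, 1.94 and 13.5, a log2 fold change of 1.07 with an interval of -0.26 to 2.39. Il6, a cytokine of acute inflammation, had 0.101, 0.269 and 0.292 FPKM against 0.207, 0.0929 and 1.78, and was too weak to be tested. S100a8, a calcium-binding protein of neutrophils, reached 82.4 FPKM in free ribozyme tumor 3 against at most 0.497 in the other 5 tumors.

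Genes of metal handling lay on both sides of 0. Of 22 tested, 12 lay above 0 and 10 below, 0 passed the screen, and the median was 0.02. Slc39a14, an importer of manganese, had 9.35, 8.56 and 6.33 FPKM against 9.03, 8.39 and 9.81, a log2 fold change of -0.16 with an interval of -0.46 to 0.14. Slc30a10, a manganese exporter, was listed at 0 in all 6 tumors, and Slc39a8, another importer, was at or below 0.144 FPKM. Cp, the ferroxidase ceruloplasmin, stood at 0.46 with no overlap (limma unadjusted p = 0.0123). The redox defence genes lay on both sides as well, 7 above 0 and 13 below. That is 35% above 0, near the 38.5% over all genes tested. Sod2, the manganese-dependent superoxide dismutase of mitochondria, stood at -0.01 (interval -0.22 to 0.19).

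In the melanocyte, cell cycle, unfolded protein response and endothelial lists, no gene passed the screen. That is near the shares over all genes tested, 0.558% higher and 0.194% lower. Melanocyte genes lay above 0 in 16 of 18 cases with a median of 0.32 (0.17 without free ribozyme tumor 3 and 0.53 without free ribozyme tumor 2). Oca2, a melanosome channel protein, had 26, 26.6 and 22.9 FPKM against 10.8, 27.7 and 7.50, and free ribozyme tumor 2 was as high as the framework tumors. Cell cycle genes were level, 16 of 27 above 0 with a median of 0.02, and Mki67, the proliferation marker, stood at 0.06. Genes of the unfolded protein response lay below 0 in 15 of 16 cases with a median of -0.23 (-0.13 without free ribozyme tumor 3). In 4 of them every framework tumor lay below every free ribozyme tumor. Of all genes tested, 38.5% lay above 0, and 4.48% had every framework tumor below every free ribozyme tumor. Hspa5, the main chaperone of the endoplasmic reticulum, had 216, 225 and 196 FPKM against 238, 233 and 297, a log2 fold change of -0.26 (interval -0.55 to 0.03). Endothelial genes lay below 0 in 10 of 11 cases, with Cdh5, the junction cadherin of vessels, at 2.91, 2.34 and 3.08 FPKM against 4.29, 3.71 and 10.2. Free ribozyme tumor 3 was again the highest, and the list median of -0.57 was -0.17 without it.

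The 24 lower genes of the screen were mostly short. Of these, 18 were under 200 bases long, compared with 488 of all 12357 genes tested, and their median length was 103.5 bases against 3970 for all genes. They include small nucleolar RNA genes, which guide the chemical modification of ribosomal RNA and lack poly(A) tails, while the libraries were enriched for poly(A) RNA. Snord37 had 3.79, 8.08 and 2.08 FPKM against 9.38, 12.3 and 16.3, a log2 fold change of -1.39 (SE 0.43, limma unadjusted p = 0.0058), and Snord1b stood at -1.24. A total of 21 of the 24 were lowest in framework tumor 3, and 2 stayed in the screen without it. Among longer genes, Hapln1, a cartilage link protein, had 6.79, 6.27 and 4.44 FPKM against 20.8, 6.37 and 21.3, a log2 fold change of -1.18, and Fbp2, the muscle form of fructose bisphosphatase, stood at -1.30. In both, free ribozyme tumor 2 lay close to the framework tumors.

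Free PS473 was the lowest of the 6 groups in each interferon-related list. The immunity GTPase score, as the mean of log2(FPKM + 1), was 2.05 ± 0.56 (SD, n = 3) in Free PS473, 2.80 ± 0.21 in PBS, 3.08 ± 0.56 in PS473@CPs, 3.03 ± 0.28 in the empty framework, 3.36 ± 0.14 in M5@NKMOF-101-[Mn] and 3.40 ± 0.91 in PS473@NKMOF-101-[Mn]. The antiviral effector score followed with 2.42 ± 0.29 in Free PS473, 2.84 ± 0.18 in PBS and 3.23 ± 0.62 in PS473@NKMOF-101-[Mn]. The spread within PS473@NKMOF-101-[Mn] exceeded its distance from the PBS mean in both lists.

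**Figure D4:**
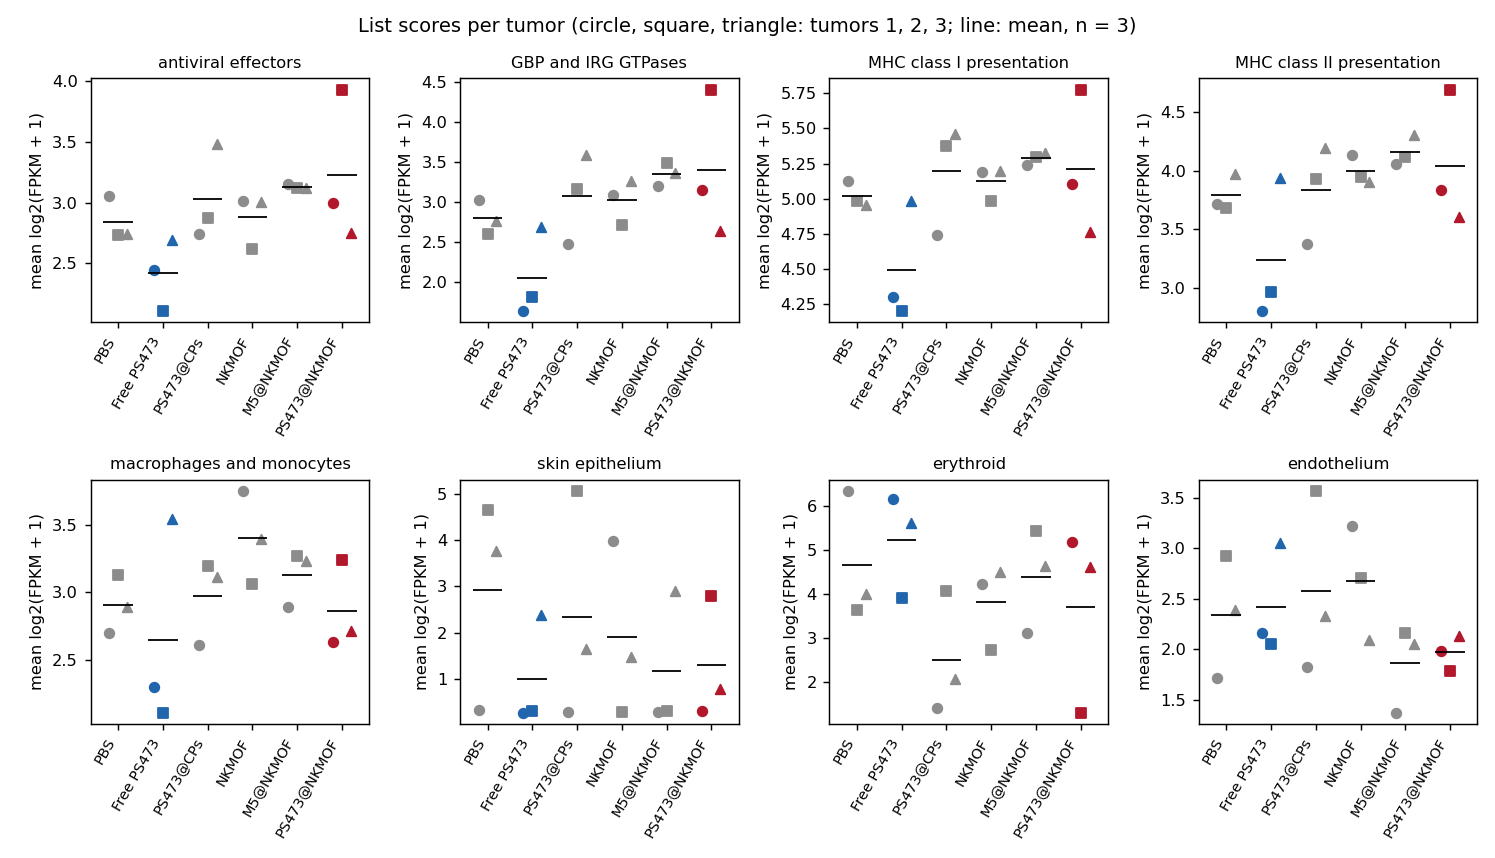
Mean log2(FPKM + 1) of 8 gene lists (vertical axes) in each of the 18 tumors by group (horizontal axes; blue, Free PS473; red, PS473@NKMOF-101-[Mn]; grey, the other groups); lines are group means of n = 3. Free PS473 has the lowest mean in the antiviral, immunity GTPase and both MHC panels, and framework tumor 2 (square) is the highest tumor in all 4 of them.

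The other groups were set against the same Free PS473 tumors, so their differences share these controls and are given side by side only. The median log2 fold change of the immunity GTPases was 0.96 for PBS, 1.28 for PS473@CPs, 1.23 for the empty framework and 1.62 for M5@NKMOF-101-[Mn], beside 1.61 for PS473@NKMOF-101-[Mn]. For antiviral effectors the values were 0.47, 0.67, 0.51 and 0.83, beside 0.95. After adjustment, limma called 0 genes in each of these comparisons; before it, the screen held 17, 75, 89 and 92 higher genes and 1, 17, 6 and 12 lower genes, in the same order.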

How the data were processed

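The authors enriched poly(A) RNA from the tumors and deposited FPKM values for each gene and tumor, with a gene length. The submitters' processing notes name genome build GRCm 39, and the aligner and annotation are not given in the sources used here. Multiplied by gene length, 48.5% to 55.9% of low values were whole numbers of fragments (within 0.02), so no count model was used. Values were used by gene symbol, as log2(FPKM + 1), for genes averaging 1 FPKM or more across the 18 tumors. limma 3.58.1 (R 4.3.3) was fitted over all 6 groups with a trend on mean expression, with Benjamini-Hochberg adjustment over 12357 genes. Intervals are at 95%. The fit was tried on simulated data in which genes varied independently, so the joint shifts of genes seen in these tumors were not covered. Figures and lists used Python 3.11.15, numpy 2.4.6, pandas 2.3.3 and matplotlib 3.10.9. Sequences came from the study's supplement, RefSeq (GRCm38.p6) and GENCODE M21 (GRCm38), matched by name.

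The groups and the 29 gene lists were chosen with earlier results of these data known. Genes named are Cd274 and those the study measured otherwise, the 10 of smallest p per direction in the screen, the first 3 and up to 4 of smallest p in each list, and all antiviral, GTPase, class I and sensor genes. Mice were randomized to groups, each tumor counts as 1 replicate, and p-values rest on the spread between tumors within groups, pooled over all 6 groups. 1 gene that meets this rule is not reported here. No pair of tumors held the same values. Alternatives were a pseudocount of 0.1, other filters and scalings, the 2 groups alone, no trend, array weights, a replicate block, a skin covariate and leaving out each tumor.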

Additional observations from a re-analysis of the deposited data

How the results depend on the processing

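Depth and 3 tumors per group limit the comparison: the unadjusted counts are not controlled for multiple testing. The 69 higher genes became 108 with a pseudocount of 0.1, 129 with array weights and 22 to 149 with single tumors left out (22 and 115 without PS473@NKMOF-101-[Mn] tumors 2 and 3, 149 without Free PS473 tumor 3). The 24 lower genes became 42 with a pseudocount of 0.1, 11 with the 2 groups alone, 41 with the skin score as a covariate and 3 to 107 with single tumors left out (94, 107 and 3 without PS473@NKMOF-101-[Mn] tumors 1, 2 and 3, 46 and 11 without Free PS473 tumors 2 and 3). With the spread taken from the 2 groups alone, 54 of the 69 higher genes stayed in the screen. After adjustment, array weights called 103 higher and 19 lower genes where the other settings called 0. These weights gave Free PS473 tumor 1 a weight of 17.1, and their estimation did not converge. The Cd274 log2 fold change was 0.63 with array weights (95% interval 0.19 to 1.06, limma unadjusted p = 0.00798, adjusted p = 0.0888), past the unadjusted threshold, and 0.028 to 0.86 with single tumors left out. With the replicate block, 68 higher and 23 lower genes were counted, 0 after adjustment, and Cd274 stayed at 0.46. Tumors of the same number did not deviate together (correlations 0.29, -0.31 and -0.02), so the numbers were not treated as pairs. Over 255 named genes and 16 settings, 3686 log2 fold changes stayed on their side of the unadjusted threshold, 242 lost it, 152 gained it, and 0 that had passed it changed direction. The causes of these changes were not tested.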
